A study of Mus musculus with 8 samples.

Results

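The RNA of 10 genes that make, export, break down or sense prostaglandin E2 was followed in mouse kidney cells that bind Dolichos biflorus agglutinin (DBA). The genes were taken by symbol from the table of 55304 genes: Pla2g4a, Ptgs1, Ptgs2, Ptges, Ptges2, Ptges3, Abcc4, Hpgd, Ptger1 and Ptger4. All 10 were found, and all 10 passed the filter on low counts that left 17440 genes for testing. DBA is a lectin commonly used to enrich collecting duct cells. The cells came from kidneys of WT mice or of mice labelled ADPKD, for autosomal dominant polycystic kidney disease. Each genotype received DMSO vehicle or 666-15, a small molecule that blocks CREB, the transcription factor that answers to cyclic AMP, dosed at 5 mg/kg in cycles of 5 daily doses and 2 days off, over 3 weeks from postnatal day 11. The 4 groups are thus WT with vehicle, WT with inhibitor, ADPKD with vehicle and ADPKD with inhibitor, with 2 libraries each and 8 in all. The labels name neither the gene altered in the ADPKD mice nor any promoter or Cre driver, and give no animal for any library. The p-values therefore measure only the spread between these libraries, which may be technical in 3 of the 4 groups. In WT cells with inhibitor the 2 libraries differed in sex, as given below, so they did not come from the same animals.

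Prostaglandin E2 is a short-lived lipid signal. Cytosolic phospholipase A2 frees arachidonic acid from membranes, cyclooxygenases turn it into prostaglandin H2, and prostaglandin E synthases turn that into prostaglandin E2, which leaves the cell, acts on EP receptors nearby, and is inactivated by an NAD-dependent dehydrogenase. In the kidney the collecting duct is a major site of this synthesis, where prostaglandin E2 modulates salt and water transport; the EP4 receptor raises cyclic AMP, a signal known to drive CREB and, in cystic epithelium, fluid secretion and proliferation.

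Total counts per library ranged from 15108793 to 19702638. Levels are given as CPM, counts scaled to a fixed library size after TMM normalisation for library composition, and comparisons between genes use CPM per kb of exon. Exon length counts all annotated exons of a gene, so comparisons between genes depend on that choice. The summed level of 7 principal cell markers was 983 to 1333 CPM in WT cells with vehicle, 5854 to 5884 CPM in WT cells with inhibitor, 1506 to 1835 CPM in ADPKD cells with vehicle and 1822 to 2232 CPM in ADPKD cells with inhibitor. Markers of other cells were present too: 7 proximal tubule markers summed to 10310 to 12200, 4400 to 4897, 22.2 to 26.6 and 288 to 308 CPM in the same order. The 5 markers of thick ascending limb and macula densa summed to 6120 to 6220, 2863 to 3766, 320 to 327 and 289 to 373 CPM. The WT libraries thus held much RNA of tubule segments other than the collecting duct, and these marker levels moved with genotype and with treatment. Their part in the results was not tested, and in bulk samples fewer cells of a type and less RNA per cell cannot be told apart. Replicate 2 of WT cells with inhibitor stood apart in sex, with 17688 counts of Xist and 0 of the Y-linked Ddx3y. The other 7 libraries had at most 8 and at least 1776. A fit that leaves out a library leaves its group without a replicate, so its p-value draws no spread from that group. For several results that rest on this replicate 2, the value without it is given as well. Without it each call of a member that uses this group held, except the difference in response of Ptgs2 (1.73, edgeR adjusted p = 0.112).

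The inhibitor raised the synthase Ptges in WT cells and lowered it in ADPKD cells. The cyclooxygenase Ptgs2 rose with the inhibitor in ADPKD cells, whereas Ptgs1 and the receptor Ptger4 rose mainly in WT cells, to about the level that ADPKD cells already had with vehicle. Calls below are from edgeR's quasi-likelihood test at an adjusted p below 0.05 (Benjamini-Hochberg over all genes tested). Between genotypes with vehicle, 4 of 10 members passed, 3 higher and 1 lower in ADPKD cells, against 56.4% of all genes tested, 28.8% higher and 27.6% lower. With inhibitor against vehicle, 8 of 10 members passed in ADPKD cells, 7 higher and 1 lower, against 41.4% of all genes, 22.3% higher and 19.1% lower. In WT cells 6 of 10 passed, 5 higher and 1 lower, against 25.5% of all genes, 13.9% higher and 11.6% lower. Between genotypes with inhibitor, 7 of 10 passed, 4 higher and 3 lower in ADPKD cells, against 46.3% of all genes, 21.8% higher and 24.5% lower. The response to the inhibitor differed between the genotypes for 7 of 10 members, 4 with a higher and 3 with a lower value in ADPKD cells, against 26.6% of all genes, 13.6% higher and 13.0% lower. The share between genotypes with vehicle was below that of all genes, and the other 4 shares were above it. With 10 members, chosen with earlier results of these data known, these counts describe the list and no more. The median log2 change of the 10 members was 0.45 with inhibitor in ADPKD cells and 0.49 in WT cells, against 0.02 and -0.01 over all genes.

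**Figure D1:**
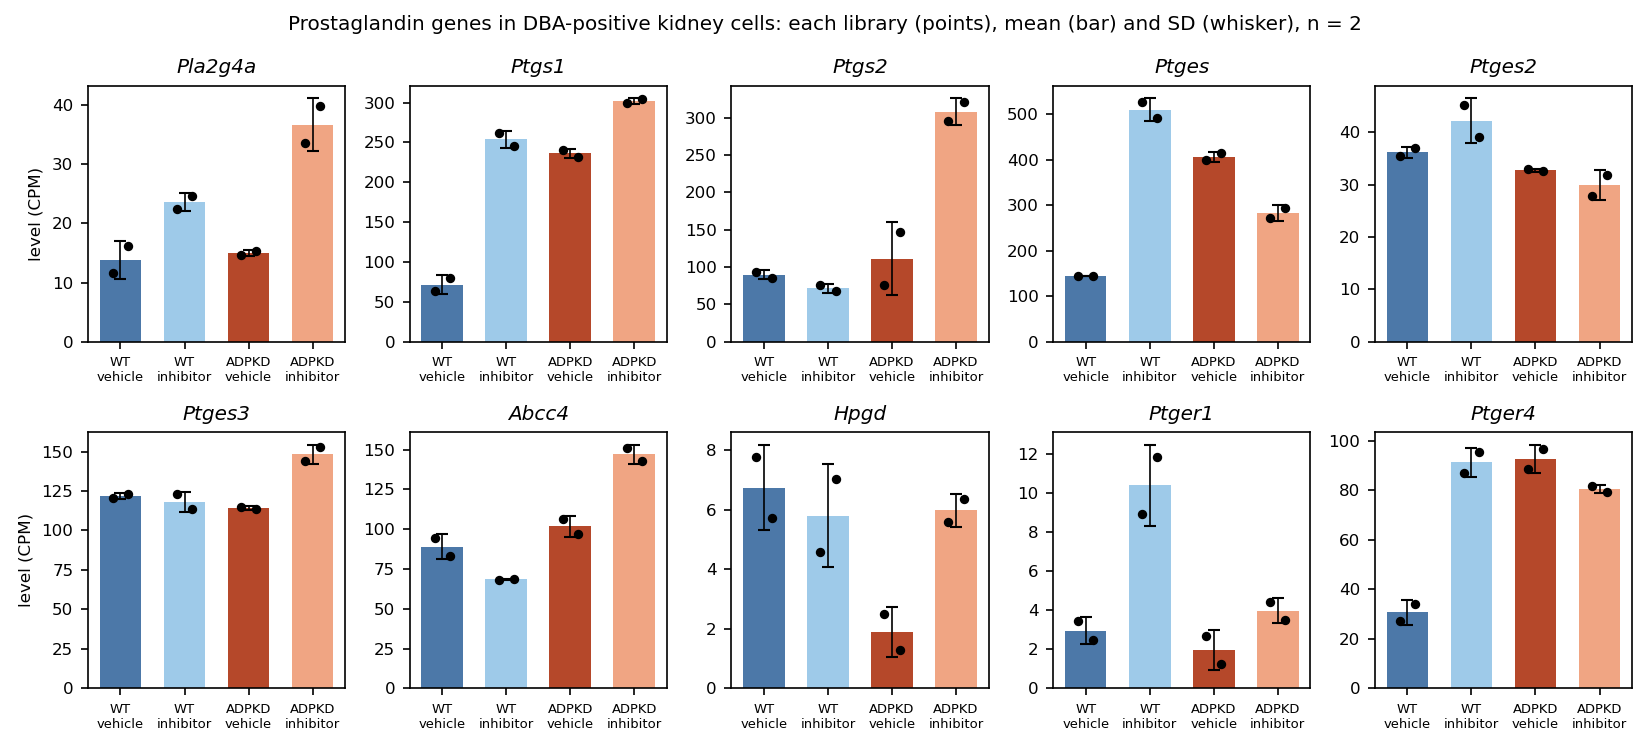
Level of each of the 10 genes in CPM (vertical axis, from 0) in the 4 groups (horizontal axis); points are libraries, bars the mean and whiskers the SD of 2 libraries. Ptges was highest in WT cells with inhibitor, and Ptgs2 was highest in both libraries of ADPKD cells with inhibitor.

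Pla2g4a encodes cytosolic phospholipase A2 alpha, the enzyme that releases arachidonic acid, and lies on chromosome 1 at 149829618 to 149961290 (GRCm38, minus strand). Its level was 11.6 and 16.1 CPM in the WT libraries with vehicle, 22.5 and 24.6 CPM in WT with inhibitor, 14.7 and 15.4 CPM in ADPKD with vehicle, and 33.5 and 39.8 CPM in ADPKD with inhibitor. Both inhibitor groups lay above both vehicle groups with no overlap, and the ADPKD vehicle libraries lay inside the range of the WT ones. The inhibitor raised Pla2g4a 2.44-fold in ADPKD cells (log2 change 1.28 ± 0.175 SE, edgeR adjusted p = 0.000106) and 1.70-fold in WT cells (0.77 ± 0.177, adjusted p = 0.00627). With inhibitor it was 1.56-fold higher in ADPKD than in WT cells (0.64 ± 0.172, edgeR adjusted p = 0.00834). The responses of the genotypes were not shown to differ (0.52, 95% interval -0.02 to 1.05, edgeR adjusted p = 0.144). The WT response missed the threshold without WT vehicle replicate 1 (0.54, edgeR adjusted p = 0.111), and the genotype difference with inhibitor missed it without ADPKD inhibitor replicate 2 (0.51, adjusted p = 0.101). Without the female WT inhibitor library the WT response was 0.70 (adjusted p = 0.0278).

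Ptgs2 lies beside Pla2g4a, on the other strand and 138.7 kb away. Ptgs1 and Ptgs2 encode the cyclooxygenases that convert arachidonic acid to prostaglandin H2; Ptgs1 is the form made steadily in many tissues and Ptgs2 the form that stimuli induce. Because the inhibitor targets CREB, promoters from RefSeq (GRCm38.p6, 250 bases before to 50 after each annotated start) were searched on both strands for the cyclic AMP response element, TGACGTCA, and for its core, TGACG. Of the 10 members 9 had a promoter there, 11 promoters in all. None held the full element, which 1.79% of all 32851 promoters of that length hold. The core was found in 2 of the 11 promoters, those of Ptgs2 and Ptges3, and in 20.8% of all promoters. Below are 170 bases before to 30 bases after the start of these 2 and, for comparison, of Ptgs1 and Ptges, the members whose RNA responded most in WT cells. Capitals mark the core, which is read here on the opposite strand.
Ptgs2: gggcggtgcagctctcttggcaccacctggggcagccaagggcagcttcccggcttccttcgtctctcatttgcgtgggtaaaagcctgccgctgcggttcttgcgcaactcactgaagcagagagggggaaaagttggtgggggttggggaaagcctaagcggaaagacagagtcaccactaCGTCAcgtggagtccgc
Ptges3: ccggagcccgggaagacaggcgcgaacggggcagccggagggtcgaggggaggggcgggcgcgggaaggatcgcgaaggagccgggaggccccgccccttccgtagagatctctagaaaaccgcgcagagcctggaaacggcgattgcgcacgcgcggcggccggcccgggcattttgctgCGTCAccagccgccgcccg
Ptgs1: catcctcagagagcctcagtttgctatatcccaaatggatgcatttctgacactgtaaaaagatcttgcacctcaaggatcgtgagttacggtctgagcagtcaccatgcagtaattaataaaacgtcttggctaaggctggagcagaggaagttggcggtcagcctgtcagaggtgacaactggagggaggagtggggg
Ptges: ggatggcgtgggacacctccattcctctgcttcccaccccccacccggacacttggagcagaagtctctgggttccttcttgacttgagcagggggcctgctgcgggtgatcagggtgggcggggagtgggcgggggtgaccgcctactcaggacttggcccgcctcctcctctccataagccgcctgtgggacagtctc
The Ptgs2 stretch is chr1:150099861-150100060 on the plus strand, with the core at bases 14 to 18 after the start; it overlaps an E-box, CACGTG, at bases 17 to 22, a motif that 7.15% of all promoters hold. In Ptges3, chr10:128058812-128059011 on the plus strand, the core lies at bases 12 to 16. The Ptgs1 stretch is chr2:36230256-36230455 on the plus strand and the Ptges stretch is chr2:30903268-30903467 on the minus strand; RefSeq's Ptges start lies inside the GENCODE span of the gene, so other starts were not searched. A match is only these letters in this window and was not tested for binding.

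Ptgs1 lies on chromosome 2 at 36230426 to 36252272. Its level was 63.6 and 79.9 CPM in WT with vehicle, 262 and 246 CPM in WT with inhibitor, 240.1 and 232 CPM in ADPKD with vehicle, and 299 and 305 CPM in ADPKD with inhibitor. WT cells with vehicle were thus the low group, and the other 3 groups lay within 232 to 305 CPM. The inhibitor raised Ptgs1 3.54-fold in WT cells (log2 change 1.82 ± 0.113 SE, edgeR adjusted p = 4.74e-07), rank 28 of 17440 genes by p, and 1.28-fold in ADPKD cells (0.35 ± 0.108, adjusted p = 0.0195). With vehicle it was 3.29-fold higher in ADPKD than in WT cells (1.72 ± 0.112, edgeR adjusted p = 4.38e-08); with inhibitor the difference was 0.25 (95% interval 0.01 to 0.48, adjusted p = 0.0781), and it passed the threshold with the GC trend removed (0.30, adjusted p = 0.0298). The responses of the genotypes differed by -1.47 ± 0.155 on the log2 scale (edgeR adjusted p = 3.73e-05). The small rise in ADPKD cells missed the threshold without any 1 of the 4 ADPKD libraries (0.35 to 0.38, adjusted p 0.0546 to 0.0904) and with a filter of 5 CPM (0.27, adjusted p = 0.052). Without the female WT inhibitor library the rise in WT cells was 1.86 (adjusted p = 3.41e-07).

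Ptgs2, on chromosome 1 at 150100031 to 150108227, behaved otherwise. Its level was 94.1 and 85.8 CPM in WT with vehicle, 76.3 and 67.8 CPM in WT with inhibitor, 76.6 and 146 CPM in ADPKD with vehicle, and 296 and 321 CPM in ADPKD with inhibitor. Both libraries of ADPKD cells with inhibitor lay far above the other 6, the WT libraries with inhibitor were the lowest, and the ADPKD vehicle libraries differed from each other more than those of any other group of this gene. The inhibitor raised Ptgs2 2.77-fold in ADPKD cells (log2 change 1.47 ± 0.278 SE, edgeR adjusted p = 0.00622), and the value was 1.08 or 2.03 without ADPKD vehicle replicate 1 or 2. It missed the threshold in a model of these 2 groups alone (1.44, adjusted p = 0.0624) and when the GC trend was removed in a fit with a replicate block (1.09, adjusted p = 0.0669). With inhibitor Ptgs2 was 4.28-fold higher in ADPKD than in WT cells (2.1 ± 0.286, edgeR adjusted p = 0.00115; 2.03, adjusted p = 0.0365, without the female library). No difference between genotypes was called with vehicle (0.31, 95% interval -0.36 to 0.97, edgeR adjusted p = 0.383), a value set by which ADPKD vehicle library is used: it was 0.69 without replicate 1 and -0.25 without replicate 2. The change in WT cells was -0.32 (95% interval -0.99 to 0.35, edgeR adjusted p = 0.463), and it was -0.33 without ADPKD vehicle replicate 1 or replicate 2. The responses of the genotypes differed by 1.79 ± 0.393 (edgeR adjusted p = 0.0179). That difference missed the threshold without WT vehicle replicate 1 (1.74, adjusted p = 0.0844) or 2 (1.87, 0.0642), without WT inhibitor replicate 1 (1.89, 0.115) or 2 (1.73, 0.112), without ADPKD inhibitor replicate 2 (1.74, 0.0594), and with the GC trend removed (1.36, 0.0713).

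Per kb of exon the cyclooxygenases could be set against each other. Their summed level was 36.9 and 39.3 CPM per kb in WT with vehicle, 84.0 and 78.2 in WT with inhibitor, 78.6 and 91.7 in ADPKD with vehicle, and 142 and 149 in ADPKD with inhibitor. Ptgs1 made up 44.3% and 52.4% of that sum in WT with vehicle, 80.2% and 81.1% in WT with inhibitor, 78.7% and 65.2% in ADPKD with vehicle, and 54.4% and 52.8% in ADPKD with inhibitor. The sum was therefore lowest in untreated WT cells and highest in treated ADPKD cells, and no test was run on these ratios. The shares depend on the exon length used, which was 3884 bases for Ptgs1 and 4580 for Ptgs2. The longest transcripts have 2867 and 4453 bases, and by those lengths the share of Ptgs1 would be higher. Macula densa cells are a known source of Ptgs2 in the kidney. The summed markers of thick ascending limb and macula densa were highest in WT cells with vehicle. With the inhibitor in ADPKD cells, where Ptgs2 rose, 2 of 5 passed higher and 0 lower (over all genes 22.3% and 19.1%). Their sum in ADPKD cells was 320 to 327 CPM with vehicle and 289 to 373 CPM with inhibitor. Of the 5, Nos1 was near the floor in ADPKD cells, at a mean of 0.0802 CPM with vehicle and 0.099 CPM with inhibitor. Interstitial cells also make both enzymes: 7 interstitial and stromal markers summed to 123 to 162, 93.9 to 144, 340.1 to 591 and 285.6 to 285.8 CPM in the order of the groups above. Of 6 principal cell markers tested, 6 passed higher with the inhibitor in WT cells (over all genes 13.9%), where Ptgs1 rose. Between genotypes with vehicle 4 passed higher and 1 lower in ADPKD cells (28.8% and 27.6%). With the inhibitor in ADPKD cells 3 passed higher and 1 lower (22.3% and 19.1%). Between genotypes with inhibitor 6 passed lower (24.5%), and no Ptgs1 difference was called. The part of these cell types in the cyclooxygenase levels was not tested.

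**Figure D2:**
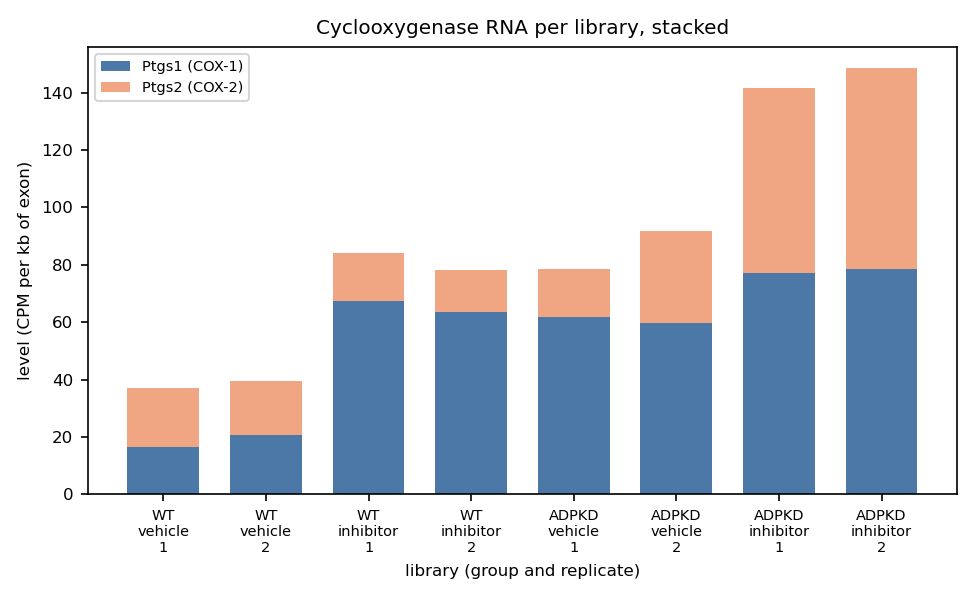
Level of Ptgs1 and Ptgs2 in CPM per kb of exon (vertical axis), stacked, in each of the 8 libraries (horizontal axis). The sum rises from 36.9 and 39.3 in WT cells with vehicle to 142 and 149 in ADPKD cells with inhibitor. There Ptgs2 makes up nearly as much as Ptgs1 when all annotated exons are counted, and less by the longest transcripts.

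Ptges encodes microsomal prostaglandin E synthase-1, the inducible enzyme that usually works with Ptgs2, and lies on chromosome 2 at 30889471 to 30929863 (minus strand). Its level was 144 and 144 CPM in WT with vehicle, 528 and 492 CPM in WT with inhibitor, 399 and 413 CPM in ADPKD with vehicle, and 271 and 295 CPM in ADPKD with inhibitor. No groups overlapped. The inhibitor raised Ptges 3.54-fold in WT cells (log2 change 1.82 ± 0.094 SE, edgeR adjusted p = 2.65e-07), rank 5 of 17440 genes by p in that comparison. In ADPKD cells the inhibitor lowered it 1.44-fold (-0.52 ± 0.0912, edgeR adjusted p = 0.000635). Between genotypes Ptges was 2.82-fold higher in ADPKD cells with vehicle (1.49 ± 0.0931, edgeR adjusted p = 2.87e-08) and 1.80-fold lower in them with inhibitor (-0.85 ± 0.0916, adjusted p = 9.43e-06). The responses differed by -2.34 ± 0.131 (edgeR adjusted p = 5.89e-07), rank 6 of 17440. Every Ptges call held under each of the alternatives run, and without the female library the rise in WT cells was 1.87 (adjusted p = 1.61e-07). Of 6 principal cell markers tested, 6 passed higher with the inhibitor in WT cells (over all genes 13.9%). In ADPKD cells 3 passed higher and 1 lower (over all genes 22.3% and 19.1%). Between genotypes with vehicle 4 passed higher and 1 lower in ADPKD cells (28.8% and 27.6%). Between genotypes with inhibitor 6 passed lower (24.5%). The part of principal cells in the Ptges levels was not tested.

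The other synthases moved little. Ptges2, the membrane-associated synthase on chromosome 2 at 32395896 to 32405772, lay between 27.9 and 45.3 CPM in all 8 libraries. It passed in 1 comparison only, 1.41-fold lower in ADPKD than in WT cells with inhibitor (-0.50 ± 0.131, edgeR adjusted p = 0.00756), was -0.59 (0.00466) without the female library, and missed the threshold there without WT inhibitor replicate 1 (-0.39, adjusted p = 0.0527), without ADPKD inhibitor replicate 1 (-0.40, 0.0915) and when the GC trend was removed in a fit with a replicate block (-0.33, 0.0541). Ptges3, on chromosome 10 at 128058954 to 128077272, encodes the cytosolic synthase, also known as the Hsp90 co-chaperone p23. Its level was 120.3 and 123 CPM in WT with vehicle, 123 and 114 CPM in WT with inhibitor, 115 and 114 CPM in ADPKD with vehicle, and 144 and 153 CPM in ADPKD with inhibitor. ADPKD cells with inhibitor were the high group, with no overlap with the others. The rise with inhibitor in ADPKD cells was 1.30-fold (0.37 ± 0.0933, edgeR adjusted p = 0.00635), against -0.04 in WT cells (95% interval -0.24 to 0.16, adjusted p = 0.797). It was 0.06 (adjusted p = 0.681) once the GC trend was removed, and missed the threshold without ADPKD inhibitor replicate 2 (0.34, 0.0587). Ptges3 was also 1.25-fold higher in ADPKD than in WT cells with inhibitor (0.33, edgeR adjusted p = 0.0122), which became 0.08 (0.518) with the GC trend removed and 0.28 (0.103) without ADPKD inhibitor replicate 2. Ptges had 5.03 to 5.23 times the level of Ptges2 per kb in WT cells with vehicle and 11.9 to 16.3 times that level in the other 6 libraries.

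Abcc4 encodes MRP4, an efflux pump that exports prostaglandin E2 and also cyclic nucleotides, and lies on chromosome 14 at 118482692 to 118706219 (minus strand). Its level was 94.8 and 83.5 CPM in WT with vehicle, 68.1 and 68.8 CPM in WT with inhibitor, 106 and 97.1 CPM in ADPKD with vehicle, and 151 and 143 CPM in ADPKD with inhibitor. The groups did not overlap, and treatment spread them: WT cells with inhibitor were the lowest and ADPKD cells with inhibitor the highest. The inhibitor raised Abcc4 1.45-fold in ADPKD cells (log2 change 0.53 ± 0.103 SE, edgeR adjusted p = 0.00127) and lowered it 1.30-fold in WT cells (-0.38 ± 0.104, adjusted p = 0.0165), the latter missing the threshold without WT vehicle replicate 1 (-0.29, adjusted p = 0.203). Without the female library the WT value of Abcc4 was -0.39 (edgeR adjusted p = 0.0356) and its genotype difference with inhibitor 1.12 (1.04e-05). The responses differed by 0.91 ± 0.146 (edgeR adjusted p = 0.000684). With inhibitor Abcc4 was 2.15-fold higher in ADPKD cells (1.10 ± 0.104, edgeR adjusted p = 3.22e-06), and with vehicle the difference was 0.19 (95% interval -0.03 to 0.41, adjusted p = 0.132).

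Hpgd encodes the NAD-dependent dehydrogenase that begins the inactivation of prostaglandins, and lies on chromosome 8 at 56294585 to 56321043. Its level was low, at 7.77 and 5.73 CPM in WT with vehicle, 4.57 and 7.02 CPM in WT with inhibitor, 2.49 and 1.30 CPM in ADPKD with vehicle, and 5.60 and 6.38 CPM in ADPKD with inhibitor. ADPKD cells with vehicle were the only low group, and the other 3 groups overlapped. Hpgd was 3.55-fold lower in ADPKD than in WT cells with vehicle (log2 change -1.83 ± 0.353 SE, edgeR adjusted p = 0.000672), and the inhibitor raised it 3.14-fold in ADPKD cells (1.65 ± 0.358, adjusted p = 0.00269). Treated ADPKD cells were not told apart from WT cells with inhibitor (0.04, 95% interval -0.67 to 0.76, edgeR adjusted p = 0.923). The responses differed by 1.87 ± 0.484 (edgeR adjusted p = 0.0127), a value that missed the threshold without WT vehicle replicate 1 (1.65, 0.058) or ADPKD inhibitor replicate 2 (1.79, 0.0537). Proximal tubule markers also were lowest in ADPKD cells with vehicle and passed higher with inhibitor there, 6 of 7 (over all genes 22.3%). With the inhibitor in WT cells 5 of 7 passed lower (11.6%), and no Hpgd change was called. In treated ADPKD cells 7 of 7 passed lower than in WT cells with vehicle (26.7%) or with inhibitor (24.5%), and no Hpgd difference was called. Their part in the Hpgd levels was not tested. The ratio of Ptges to Hpgd per kb, synthesis set against breakdown in RNA terms, was 7.94 and 10.8 in WT with vehicle, 49.4 and 30.0 in WT with inhibitor, 68.6 and 136 in ADPKD with vehicle, and 20.7 and 19.8 in ADPKD with inhibitor. It was lowest in untreated WT and highest in untreated ADPKD cells, with no overlap between any groups.

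Ptger4 encodes EP4, a receptor that couples to the stimulatory G protein and raises cyclic AMP, and lies on chromosome 15 at 5206661 to 5244187 (minus strand). Its level was 27.0 and 34.2 CPM in WT with vehicle, 87.1 and 95.3 CPM in WT with inhibitor, 88.5 and 96.6 CPM in ADPKD with vehicle, and 81.6 and 79.1 CPM in ADPKD with inhibitor. As with Ptgs1, WT cells with vehicle were the low group and the other 3 lay close together. Ptger4 was 3.03-fold higher in ADPKD than in WT cells with vehicle (log2 change 1.6 ± 0.126 SE, edgeR adjusted p = 2.45e-07) and rose 2.98-fold with the inhibitor in WT cells (1.58 ± 0.126, adjusted p = 2.36e-06; 1.51, adjusted p = 5.36e-06, without the female library). In ADPKD cells the change was -0.20 (95% interval -0.47 to 0.06, edgeR adjusted p = 0.199), and it passed as a fall with the GC trend removed (-0.51, adjusted p = 0.00394) or the length trend removed (-0.36, 0.0295). With inhibitor the genotypes differed by -0.18 (95% interval -0.45 to 0.08, edgeR adjusted p = 0.242), and by -0.40 (adjusted p = 0.012) after the GC trend was removed. The responses differed by -1.78 ± 0.174 (edgeR adjusted p = 2.18e-05). Macrophages carry EP4 as well: 7 macrophage markers summed to 72.2 to 98.5, 115.2 to 115.8, 237 to 291 and 166 to 224 CPM in the order of the groups above. Of these 7, 6 passed higher with the inhibitor in WT cells and 6 passed higher and 1 lower in ADPKD cells with vehicle. In both comparisons Ptger4 was higher. In the difference of responses 5 passed lower. Between genotypes with inhibitor, where no Ptger4 difference was called, 6 passed higher and 1 lower in ADPKD cells. Of 6 principal cell markers tested, 6 passed higher with the inhibitor in WT cells. In ADPKD cells with vehicle 4 of them passed higher and 1 lower, and 5 passed lower in the difference of responses. Between genotypes with inhibitor 6 passed lower in ADPKD cells. The part of either cell type in the Ptger4 levels was not tested. Of the exon bases of Ptger4 15.3% are shared with the pseudogene Gm15937 on the other strand.

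Ptger1 encodes EP1, a receptor that raises cell calcium. It lies on chromosome 8 at 83666678 to 83672753. The strand setting of the counting is not given in the sources used here, so reads of either strand at a gene cannot be told apart. Its level was 3.44 and 2.48 CPM in WT with vehicle, 8.95 and 11.9 CPM in WT with inhibitor, 2.70 and 1.25 CPM in ADPKD with vehicle, and 4.43 and 3.53 CPM in ADPKD with inhibitor. WT cells with inhibitor were the high group. The inhibitor raised Ptger1 3.5-fold in WT cells (log2 change 1.81 ± 0.35 SE, edgeR adjusted p = 0.00202; 1.58, adjusted p = 0.0147, without the female library), and with inhibitor it was 2.62-fold lower in ADPKD cells (-1.39 ± 0.346, adjusted p = 0.00532; without ADPKD inhibitor replicate 2 -1.24, 0.0595). The 2.01-fold rise in ADPKD cells (1.0 ± 0.375, edgeR adjusted p = 0.0472) missed the threshold under 9 of the alternatives, among them DESeq2 (adjusted p = 0.0622) and leaving out ADPKD vehicle replicate 2 (0.58, 0.242), ADPKD inhibitor replicate 1 (0.85, 0.213) or ADPKD inhibitor replicate 2 (1.17, 0.0849). With vehicle the genotypes differed by -0.58 (95% interval -1.40 to 0.23, edgeR adjusted p = 0.206), and by -1.25 (adjusted p = 0.0247) without ADPKD vehicle replicate 1. Per kb of exon, Ptger4 exceeded Ptger1 in every library, 6.46 and 11.3 times in WT with vehicle and 26.9 and 63.6 times in ADPKD with vehicle.

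**Figure D3:**
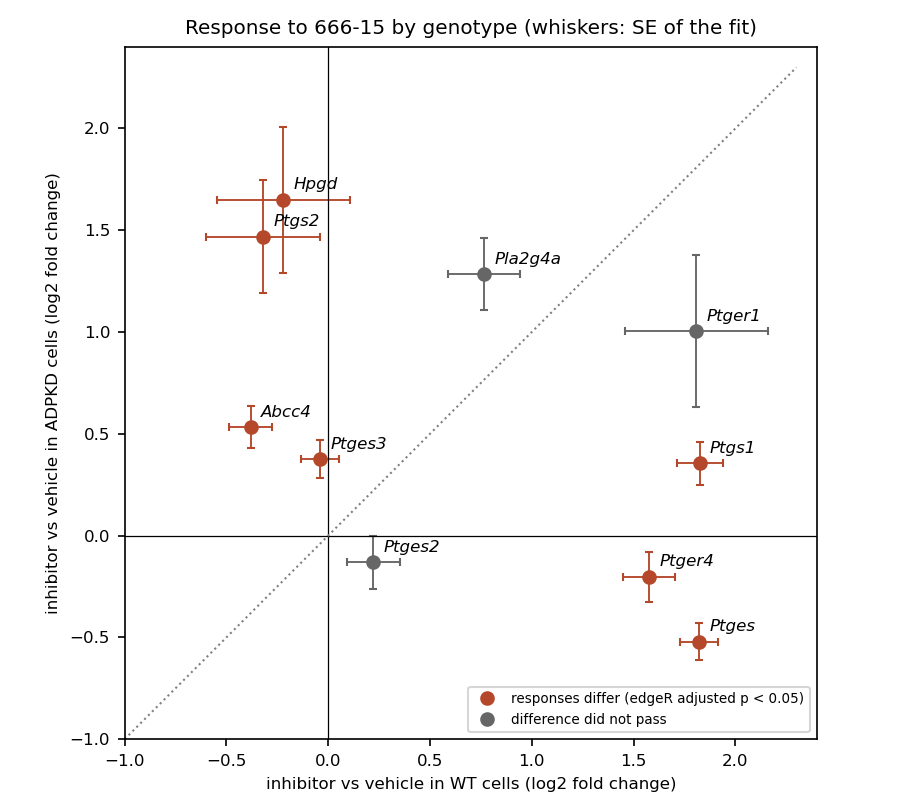
Log2 change with inhibitor in WT cells (horizontal axis) against that in ADPKD cells (vertical axis) for the 10 genes, with whiskers for the SE of the fit; the colour marks genes whose responses differed by edgeR. Ptges lies at 1.82 and -0.52, and Ptgs2 at -0.32 and 1.47.

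**Figure D4:**
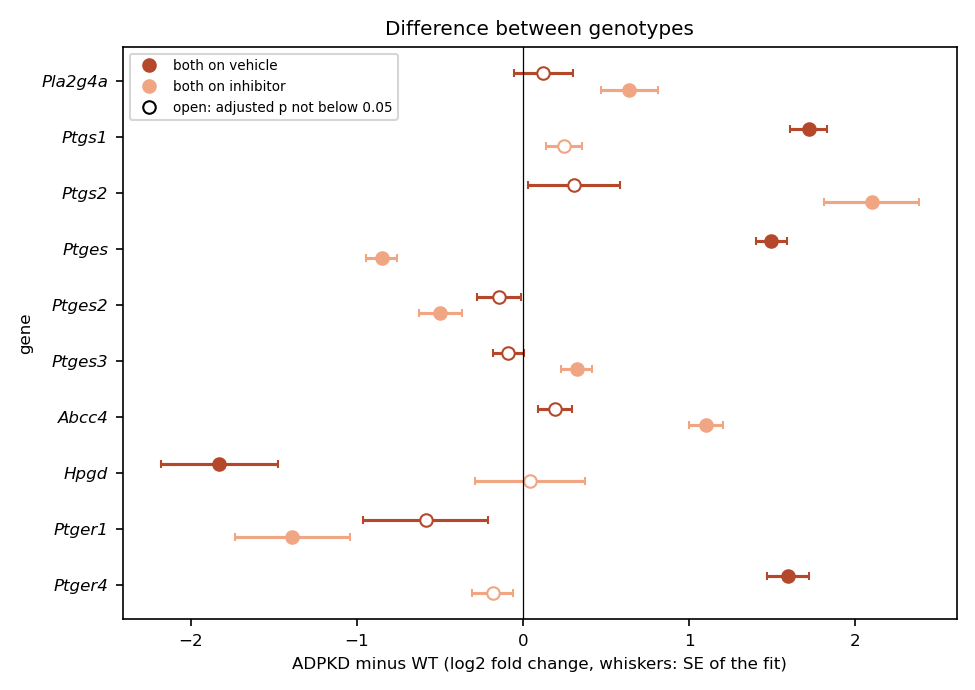
Log2 difference of ADPKD from WT cells (horizontal axis) for each of the 10 genes, with vehicle and with inhibitor, with whiskers for the SE of the fit. Ptges moves from 1.49 with vehicle to -0.85 with inhibitor, and Ptgs2 from 0.31 to 2.1.

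Treated ADPKD cells were also set against untreated WT cells, the comparison that shows whether the members were back at the level of untreated WT cells. Of the 10 members 7 were higher and 0 lower, against 55.3% of all genes, 28.6% higher and 26.7% lower. Ptgs1 stood 4.21-fold above untreated WT cells (log2 difference 2.07 ± 0.114 SE, edgeR adjusted p = 1.14e-08), Ptgs2 3.43-fold (1.78 ± 0.281, 0.00173), Pla2g4a 2.65-fold (1.41 ± 0.176, 1.9e-05) and Ptger4 2.63-fold (1.39 ± 0.126, 9.67e-07). Ptges stood 1.96-fold (0.97 ± 0.0924, edgeR adjusted p = 1.54e-06) and Abcc4 1.65-fold (0.72 ± 0.103, 5.97e-05) above them. Ptges3 passed at 0.29 (edgeR adjusted p = 0.0196), and missed the threshold once the GC trend was removed (0.05, 0.724), with DESeq2 (0.24, 0.0884) and without WT vehicle replicate 1 (0.26, 0.135) or 2 (0.29, 0.0962) or ADPKD inhibitor replicate 2 (0.24, 0.142). The members that did not pass were Hpgd at -0.18 (95% interval -0.88 to 0.53), Ptger1 at 0.42 (-0.36 to 1.21) and Ptges2 at -0.27 (-0.56 to 0.01). Ptges2 passed as lower with RLE scaling (-0.32, edgeR adjusted p = 0.0491), a filter of 5 CPM (-0.37, 0.0224), the compared groups alone (-0.36, 0.0149) and the length trend removed (-0.33, 0.0474). This comparison shares its libraries with the ones above.

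With the inhibitor in ADPKD cells, genes of low GC content tended to have higher log2 changes (Spearman's rho -0.35 across 17252 genes, a description across genes), while in WT cells rho was 0.02. Among the members the transcripts of Ptgs2 (40.0% GC), Hpgd (40.5%), Ptges3 (43.3%) and Pla2g4a (44.1%) had low GC content and passed higher in ADPKD cells, while Ptger4 (43.6%) did not pass; Abcc4 (49.7%), Ptgs1 (51.0%) and Ptger1 (58.5%) also passed higher. With the trend removed from each library the rise was 1.07 for Ptgs2 (edgeR adjusted p = 0.0353), 1.26 for Hpgd (0.0123) and 1.0 for Pla2g4a (0.000622), and Ptges fell by 0.37 (0.00469). The size of these changes therefore moved with this correction, and the call ended for Ptges3 alone among the 8 members called.

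Around the members, 52 other genes of the pathway were listed by role, of which 43 passed the filter. Between genotypes with vehicle 17 were higher and 14 lower in ADPKD cells (over all genes 28.8% and 27.6%), with a median log2 difference of 0.45 against 0.05 over all genes. With the inhibitor 7 rose and 10 fell in ADPKD cells (over all genes 22.3% and 19.1%), and 9 rose and 8 fell in WT cells (13.9% and 11.6%), with medians of 0.01 and -0.03. The responses differed between genotypes for 13 of 43, against 26.6% of all genes. Among the members 7 of 10 rose in ADPKD cells and 5 of 10 in WT cells; the difference between the lists was not tested. The list named for the prostanoid-linked response held G protein subunits and annexins among others. All 7 of its tested genes, such as Gnas and Anxa1, were higher in ADPKD cells with vehicle, against 28.8% of all genes. The list was chosen with earlier results of these data known, so this count is no measure of a prostanoid response.

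Cbr3, a carbonyl reductase able to reduce prostaglandins, moved with the inhibitor in the same directions as Ptges. Its level was 6.55 ± 0.741, 22.3 ± 2.47, 21.6 ± 0.505 and 8.53 ± 1.57 CPM (SD, n = 2) in WT with vehicle, WT with inhibitor, ADPKD with vehicle and ADPKD with inhibitor. It rose in WT cells (1.76 ± 0.192, edgeR adjusted p = 2.74e-05), fell in ADPKD cells (-1.34 ± 0.19, 0.000143) and its responses differed by -3.10 ± 0.27 (1.04e-05). Among receptors, Ptgfr, which binds prostaglandin F2 alpha, was far lower in ADPKD than in WT cells with vehicle. It stood at 1.09 ± 0.298 CPM against 32.7 ± 2.37 CPM (-4.90 ± 0.26, edgeR adjusted p = 6.35e-09), and at 3.81 ± 1.24 CPM in ADPKD cells with inhibitor. Of 4 distal convoluted tubule markers, 3 passed lower there with vehicle and 0 higher (over all genes 27.6% and 28.8%). Their sum was 2122 to 2269 CPM in WT and 119 to 144 CPM in ADPKD cells with vehicle. Proximal tubule markers passed lower for 7 of 7. The part of these cell types in the Ptgfr difference was not tested. The prostacyclin receptor Ptgir fell with the inhibitor in ADPKD cells from 7.64 ± 3.55 to 0.893 ± 0.302 CPM (-3.08 ± 0.432, edgeR adjusted p = 0.000133), a response that differed from that in WT cells (-3.14 ± 0.577, 0.00175). Endothelial markers fell in ADPKD cells with inhibitor too, 6 of 6 (over all genes 19.1%), from 971 to 1215 CPM in sum to 274 to 337 CPM, and their part in the Ptgir change was not tested.

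Among the other genes listed, Mboat1, a lysophospholipid acyltransferase, rose by nearly the same amount with inhibitor in both genotypes (1.11 ± 0.117 in ADPKD and 1.13 ± 0.12 in WT cells, edgeR adjusted p = 1.68e-05 and 2.26e-05). Mgll, the lipase that frees arachidonate from a monoglyceride, was lower in ADPKD cells with vehicle (17.6 ± 3.11 against 88.2 ± 1.6 CPM; -2.32, edgeR adjusted p = 5.09e-08). Akr1b8, an aldo-keto reductase, was higher there (217 ± 34.0 against 22.3 ± 2.21 CPM; 3.28, edgeR adjusted p = 1.28e-09). Gnas, which encodes the stimulatory G protein alpha subunit downstream of EP4, fell with the inhibitor in ADPKD cells from 124 ± 2.71 to 30.7 ± 0.206 CPM (-2.01 ± 0.116, edgeR adjusted p = 2.8e-07) and in WT cells from 66.7 ± 0.652 to 38.6 ± 4.93 CPM (-0.79 ± 0.113, 0.000232). Creb1, which encodes the target of 666-15, stood at 43.1 ± 2.17, 34.9 ± 1.6, 74.0 ± 6.56 and 53.5 ± 0.649 CPM in the 4 groups in the order above. It was higher in ADPKD cells with vehicle (0.78, edgeR adjusted p = 7.38e-05) and fell with the inhibitor in them (-0.47, 0.00573), a fall that missed the threshold without ADPKD vehicle replicate 1 (-0.37, 0.0552) or ADPKD inhibitor replicate 1 (-0.44, 0.0542). The inhibitor acts on the protein, so its RNA is no check of the dose.

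**Figure D5:**
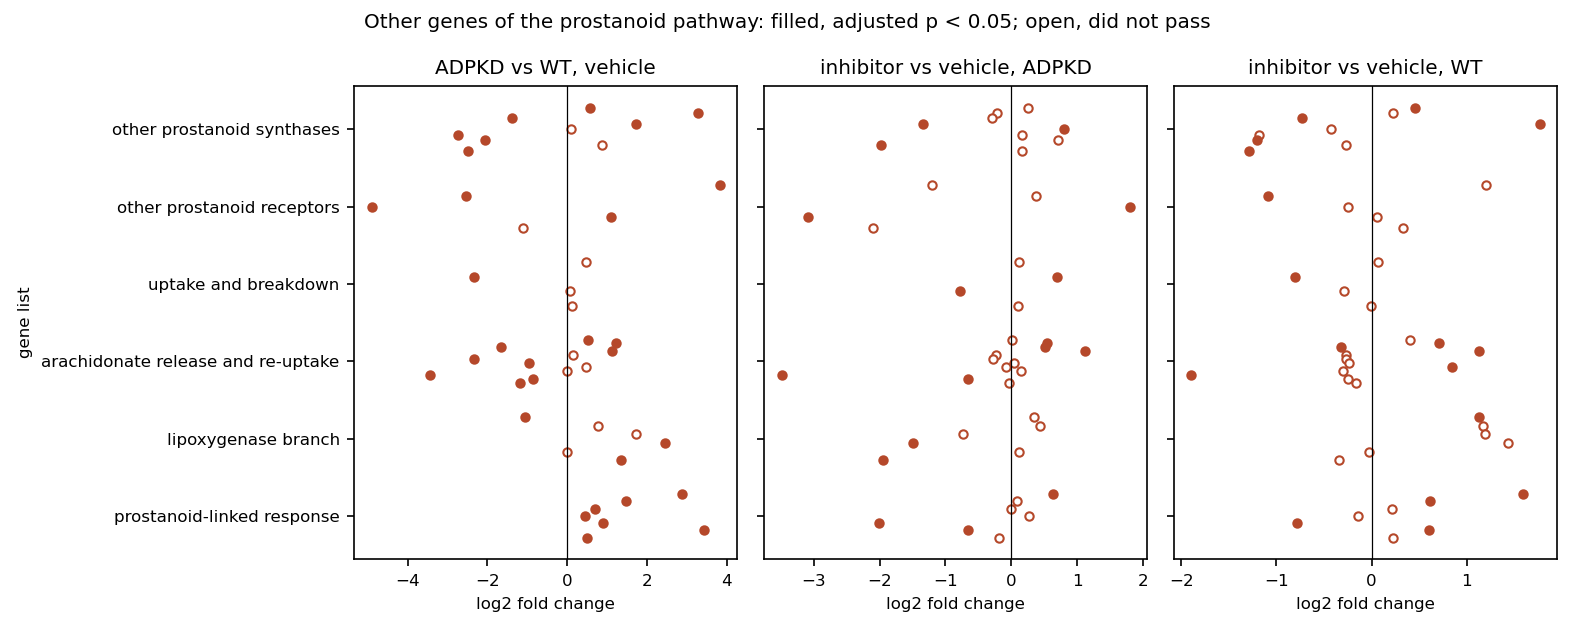
Log2 change (horizontal axis) of the other tested pathway genes by list (vertical axis) in the 3 comparisons named above the panels; each point is 1 gene, filled where edgeR's adjusted p was below 0.05. The 43 genes lie on both sides of 0 with the inhibitor, 7 higher and 10 lower in ADPKD cells.

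The genes whose pattern over the 8 libraries was most like that of a member were ranked by the mean absolute difference of centred log2 CPM among 10793 genes. For Ptges they were A4galt (0.148), Cbarp (0.163) and Sh3bgrl3 (0.175). For Ptgs2 they were Cldn1 (0.195), Nfkbiz (0.22) and Dnmt3b (0.249), and for Ptgs1 Tmsb4x (0.123), Tiam1 (0.123) and Mbp (0.124). For Ptger4 they were Eno2 (0.0939), Tspan1 (0.107) and Sgsm3 (0.111), and for Hpgd Elovl6 (0.162), Samd12 (0.164) and Esrrg (0.177). These are likenesses within 8 libraries that share genotype and treatment, and no test was made of them.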

How the data were processed

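RNA-seq of DBA-positive mouse kidney cells was analysed from the deposited table of raw counts per gene in 8 libraries. The submitters' processing notes name HISAT2 2.1.0, featureCounts 1.6.0, DESeq2 and the build mm10 as what the authors used; the annotation release, strand setting and handling of multiply mapped reads are not given in the sources used here. Per the labels' protocols, RNA was selected with oligo-dT, and the extraction text also mentions whole kidney. Vehicle columns were matched to samples by elimination. Depth was 15108793 to 19702638 counts per library.

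Genes were kept by filterByExpr (minimum count 10, minimum total 15), scaled by TMM and fitted in 1 robust quasi-likelihood model of the 4 groups with edgeR 4.0.16 in R 4.3.3 (4 residual degrees of freedom, common biological coefficient of variation 0.138). The tests were two-sided, with Benjamini-Hochberg adjustment over 17440 genes at 0.05 in each comparison; 95% intervals use the model's degrees of freedom. Positions, exon lengths and GC content came from GENCODE release M21 (GRCm38), in which 53569 symbols (96.9%) were found. The script was tested on simulated data.

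The members and lists were chosen with earlier results of these data known. All 10 members could be named, with up to 4 rising and 4 falling other pathway genes per comparison (smallest p first, mean of at least 1 CPM), Creb1, and for each member the 3 most alike genes (mean of at least 5 CPM). Alternatives were RLE scaling, no filter, a filter of 5 CPM in 2 libraries, no robust option, a replicate block, removal of the GC or length trend by lowess (span 0.3), the compared groups alone, DESeq2 1.42.0 and leaving out each library.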

Additional observations from a re-analysis of the deposited data

Results flagged for a closer look

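For 7 of the 10 genes the response to the inhibitor differed between the genotypes by a test of the difference itself (edgeR interaction term, adjusted over all genes), against 26.6% of all genes tested. The 10 genes were chosen with earlier results of these data known, so this count describes the list only. The log2 response in ADPKD cells minus that in WT cells was -2.34 for Ptges (adjusted p = 5.89e-07), -1.78 for Ptger4 (2.18e-05) and -1.47 for Ptgs1 (3.73e-05). It was 0.91 for Abcc4 (edgeR adjusted p = 0.000684), 1.87 for Hpgd (0.0127), 1.79 for Ptgs2 (0.0179) and 0.41 for Ptges3 (0.0352). Ptges and Abcc4 passed in both genotypes with opposite signs. With the GC trend removed the difference was 0.10 for Ptges3 (adjusted p = 0.669) and 1.36 for Ptgs2 (0.0713), and both missed the threshold. Ptges3 also missed it without WT vehicle replicate 1 (0.45, 0.0929) or 2 (0.42, 0.111), without ADPKD vehicle replicate 1 (0.43, 0.0721) or 2 (0.43, 0.0697), and without ADPKD inhibitor replicate 1 (0.48, 0.0615) or 2 (0.39, 0.124). Principal cell markers moved in the same comparison, with 5 of 6 tested lower, and endothelial markers with 6 of 6 lower (over all genes 13.0%). Proximal tubule markers were higher for 6 of 7 (over all genes 13.6%). The part of these cell types in the differences was not tested.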

How the results depend on the processing

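Over the 6 comparisons and the alternatives run, 989 values of members kept their direction and side of the threshold, 53 lost their call, 15 gained one and 13 changed sign. For the other pathway genes named, 248 values kept both and 2 lost their call, both of Creb1. The sign changes were all in values that had not passed. They were Ptges2 with inhibitor in ADPKD cells (0.0886 with the GC trend removed and 0.0876 with the block as well) and Hpgd between genotypes with inhibitor (-0.30 with the GC trend removed, alone or with the block). Hpgd in treated ADPKD against untreated WT cells changed to 0.0447 with the length trend removed. The other changes came from leaving out 1 library, over which the values ranged as follows. Between genotypes with vehicle Ptgs2 ranged from -0.25 to 0.69 and Pla2g4a from -0.12 to 0.35. With inhibitor in WT cells Ptges3 ranged from -0.097 to 0.0095 and Hpgd from -0.57 to 0.051. Hpgd ranged from -0.23 to 0.40 between genotypes with inhibitor and from -0.38 to 0.058 in treated ADPKD against untreated WT cells.

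Leaving out 1 library gave 4 to 6 members called between genotypes with vehicle, 5 to 8 with inhibitor in ADPKD cells, 4 to 7 in WT cells, 4 to 7 between genotypes with inhibitor, 6 to 7 for treated ADPKD against untreated WT and 4 to 6 for the interaction. The lowest counts with inhibitor in ADPKD cells (5), between genotypes with inhibitor (4) and for the interaction (4) came without ADPKD inhibitor replicate 2, and the last also without WT vehicle replicate 1. Over all genes the counts called ranged from 4783 to 7817 with inhibitor in ADPKD cells, from 2402 to 4707 in WT cells and from 3037 to 5075 for the interaction; leaving out WT vehicle replicate 1 or 2 gave 2402 and 2887 in WT cells.

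Same-numbered libraries did not deviate together (correlations -0.0371 to 0.0806 between groups over 11199 genes), so the numbers were not taken as pairs. The replicate block changed none of 60 calls of members and gave 7198 genes with inhibitor in ADPKD cells and 4599 for the interaction. A model of the compared groups alone cannot be made for the interaction, which uses all 4. RLE scaling moved the median log2 change of all genes to -0.07 at most in size. With 2 libraries a group, Hpgd and Ptger1 (23 to 188 counts for Ptger1) have the widest intervals.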
